A study of Caenorhabditis elegans with 24 samples.

Results

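Antisense small RNAs were followed at 10 genes of the machinery that makes secondary small interfering RNAs (siRNAs) in Caenorhabditis elegans: mut-2, mut-7, mut-14, mut-15, mut-16, rde-2, rde-8, rrf-1, rrf-3 and ego-1. They were chosen by name, as 7 genes of the Mutator complex and 3 genes for RNA-dependent RNA polymerases, out of 46726 features. A value here is the number of small RNA reads lying opposite a gene's transcript, so it measures small RNAs made against these genes, not their mRNA or protein.

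In C. elegans a primary small RNA marks a target transcript, and RNA-dependent RNA polymerases then copy that transcript into many secondary siRNAs, which Argonaute proteins carry. In germ cells much of this copying takes place in Mutator foci, which sit beside the P granules at the nuclear pore. MUT-16 is the scaffold of the foci, MUT-2 (also called RDE-3) adds poly(UG) tails to target fragments, RDE-8 is an endonuclease that cuts targets, MUT-7 is an exonuclease bound by RDE-2 (also called MUT-8), MUT-14 is a DEAD-box RNA helicase, and MUT-15 is a further component needed for siRNA amplification. RRF-1 and EGO-1 are the polymerases of the secondary siRNAs, EGO-1 with an essential role in the germline, and RRF-3 makes the double-stranded RNA of the ERI pathway, from which Dicer cuts primary siRNAs.

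Whole young adults were raised at 20 °C on E. coli OP50 and each of 12 groups was represented by 2 libraries. The groups were wild type (the N2 strain); the meg-3 meg-4 double mutant (meg-3/4), which lacks a pair of disordered proteins that assemble germ granules in the embryo; the hrde-1; meg-3 meg-4 triple mutant, which in addition lacks the nuclear Argonaute HRDE-1; and genotypically wild-type descendants of outcrossed meg-3/4 animals, taken at F3 to F7, F10, F15, F20 and F25. The study compared small RNAs between these genotypes and followed the descendants over generations. The library titles name the double mutant JH3225 and the triple mutant YY1512. An effect of genotype therefore cannot be told apart from other differences between these strains. The members of a group are named biological replicates but the labels do not mention separate cultures, so a p-value reflects the variation among these libraries only, which may be technical. The labels also do not say whether successive generations come from 1 line. Whole animals hold germline and soma, and a smaller share of germ cells cannot be told apart from fewer small RNAs per germ cell.

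The libraries held 392785 to 3420345 counted reads. F10 replicate 1 and F4 replicate 2 were the shallow libraries, with 392785 and 395527 reads, and 1 read there was worth 5.47 and 4.99 normalized counts, against 0.510 to 1.86 in the other 22. Reads at the deleted genes followed the labels: meg-3 had a level of 42.8 to 64.2 in wild-type and 7.74 to 7.86 in double-mutant libraries (normalized counts), and hrde-1 had 1115 to 1164 in meg-3/4 and 600 to 628.5 in the triple mutant. All 12 genes of a germline list and all 8 of an oocyte list carried reads above the filter, against 6 of 10 for soma and 5 of 10 for sperm, where msp-19 was at 0 in every library.

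All 10 genes carried antisense small RNAs above the filter of 10 normalized counts in 2 libraries, which 8869 features passed. Summed over the 10 genes, the libraries held 2715 to 3374 normalized counts, or 0.133% to 0.193% of their counted reads. Per kilobase of exon, mut-14 (chromosome V, 5658713 to 5660704, minus strand) was the most densely covered, with a mean of 482 normalized counts per kilobase, above 96.8% of the 7803 protein-coding genes that passed the filter. It was followed by mut-7 (III, 9539031 to 9542380, minus) with 128 per kilobase, mut-15 (V, 15002543 to 15005067, plus) with 104, ego-1 (I, 7650341 to 7656338, minus) with 97.9, mut-16 (I, 10080159 to 10085765, plus) with 81.7 and rde-2 (I, 7280466 to 7282924, minus), denser than 73.6% of those genes. Below these came rrf-3 (II, 8162465 to 8168651, plus) with 69.0, rrf-1 (I, 7643431 to 7649777, minus) with 59.9, rde-8 (IV, 7101379 to 7103261, minus) with 36.2 and mut-2 (I, 6356614 to 6358411, minus) with 14.1 per kilobase. Coordinates are those of the WBcel235 assembly, found by WormBase gene identifier. At the weak end mut-2 rested on 1 to 43 reads a library and rde-8 on 4 to 110, so single values of these genes are imprecise.

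**Figure D1:**
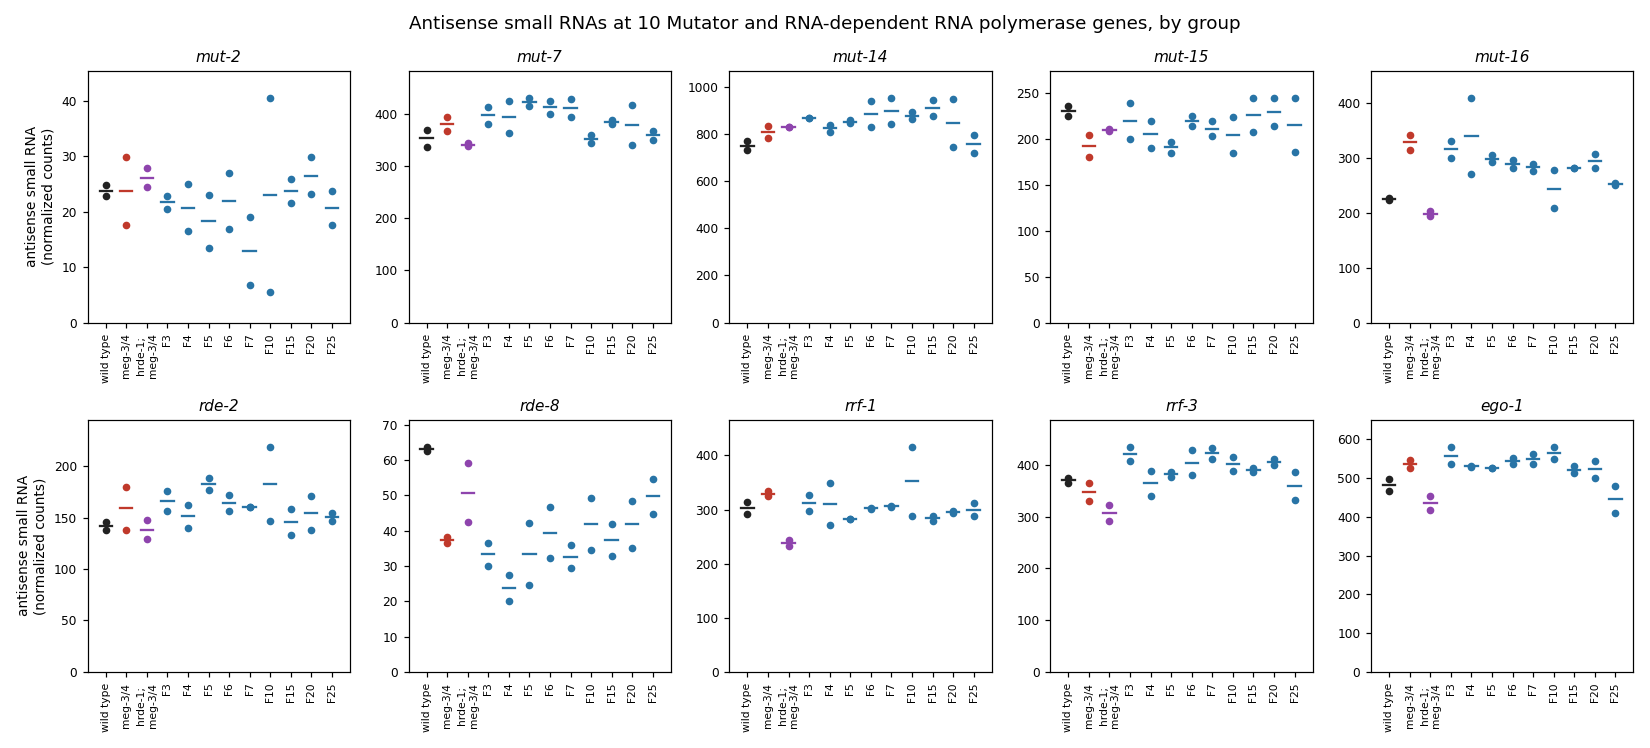
Normalized counts of antisense small RNAs (y axis, linear, from 0) at each of the 10 genes in the 12 groups (x axis); each point is a library and each bar the mean of 2. mut-14 stayed between 719 and 954 throughout, mut-16 was higher in meg-3/4 (342 and 314) than in wild type (227 and 223), and rde-8 was below wild type in all 18 descendant libraries.

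For most of the 10 genes the level differed little between genotypes and generations. The range of the 12 group means on the log2 scale had a median of 0.43 over the 10 genes, against 0.88 over all features that passed the filter. The steadiest were mut-15 and mut-14, each with a range of 0.27, then mut-7 with 0.31 and ego-1 with 0.37. Of the features that passed the filter, 1.80% to 8.20% had a smaller range than these. Those features were not matched to the 10 genes for level, and counting error widens the range at weakly covered ones. The part of coverage in these ranges was not tested. The range was 0.40 for rde-2, 0.46 for rrf-3, 0.53 for rrf-1 and 0.73 for mut-16. It was widest for the weakly covered mut-2 and rde-8, with 0.89 and 1.26. In mut-14 the counts ran from 719 in F25 replicate 1 to 954 in F7 replicate 2, and in mut-7 from 337 in wild-type replicate 2 to 431 in F5 replicate 2. These are the helicase and the exonuclease of the complex, and their highest library exceeded the lowest by factors of 1.33 and 1.28.

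Loss of MEG-3 and MEG-4 was accompanied by more small RNAs at the gene for the Mutator scaffold and by no other called change among the 10. The wild-type libraries had 226.9 and 223.0 normalized counts at mut-16, and the double-mutant libraries had 341.8 and 314.2. The groups did not overlap, and the mean rose from 225 ± 2.72 to 328 ± 19.5 (SD, n = 2 each), a ratio of 1.46. On the log2(value + 5) scale used for all tests the change was 0.53 (SE 0.147, 95% interval 0.23 to 0.84; limma, adjusted p = 0.0106 with Benjamini-Hochberg adjustment over the 8869 features). Thus 1 of 10 genes was called at an adjusted p under 0.05, against 25.9% of all features tested, of which 8.28% were higher and 17.6% lower. The direction of mut-16 was the same in every alternative fit, but the call was lost when wild-type replicate 1 (adjusted p = 0.0518), wild-type replicate 2 (0.0644) or meg-3/4 replicate 1 (0.0874) was left out. With libraries scaled to equal totals in place of the authors' factors, the mut-16 change was 0.18 and its adjusted p 0.455.

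Among the other Mutator genes rde-8, the endonuclease gene, had a level of 63.7 and 62.5 normalized counts in wild type, compared with 36.5 and 38.3 in the double mutant. These libraries did not overlap either, and the log2 change was -0.68 (95% interval -1.23 to -0.13), but the adjusted p of 0.0637 did not pass. It did pass with a pseudocount of 20 (0.0480), with equal totals (0.00566), with only the 4 libraries compared (0.0128), without the shallow libraries (0.0418) and in edgeR on the recovered reads (0.0334). mut-15 had 236.2 and 225.4 in wild type, compared with 180.3 and 204.3 in the double mutant, a log2 difference of -0.26 (95% interval -0.55 to 0.03), and with equal totals it was called lower (-0.61, limma, adjusted p = 0.00285). For mut-7 and mut-14 the difference was 0.11 in each case, with an interval of -0.11 to 0.33, and for rde-2 it was 0.15 (-0.20 to 0.50). The interval of mut-2 was the widest, from -1.03 to 0.96, so a sizeable change at this weakly covered gene could not be detected here.

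The polymerase genes gave no call between meg-3/4 and wild type, although rrf-3 was called lower with equal totals (-0.45, limma, adjusted p = 0.0228). rrf-1 had 314.3 and 291.9 counts without mutation, compared with 324.1 and 333.9 in the double mutant (log2 difference 0.12, 95% interval -0.16 to 0.40). For ego-1 the counts were 497.2 and 465.9 against 525.5 and 546.0 (0.15, -0.04 to 0.34), and for rrf-3 375.6 and 366.1 against 330.8 and 364.3 (-0.09, -0.31 to 0.12). In all, 7 of the 10 genes had meg-3/4 libraries that lay wholly above or wholly below the wild-type ones, which is near the 68.3% of all features tested that did so. The median size of the change, up or down, was 0.13 over the 10 genes and 0.34 over all features tested, which were not matched for level.

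**Figure D2:**
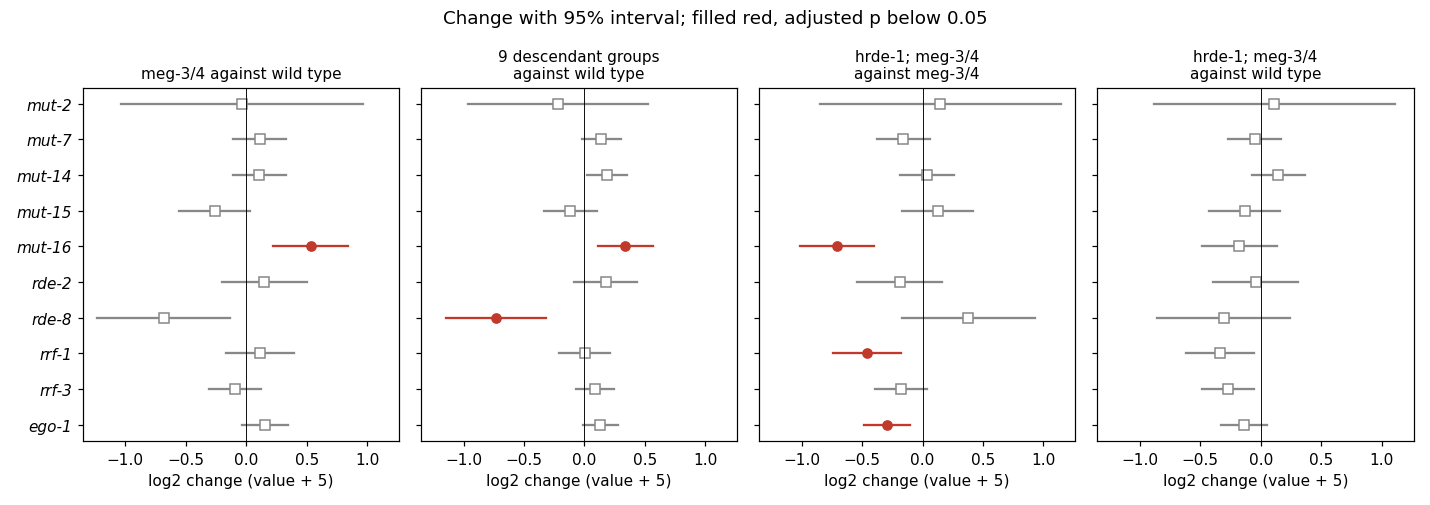
Log2 change with its 95% interval (x axis, on the log2(value + 5) scale) for each of the 10 genes (rows) in 4 comparisons (panels); filled red circles passed an adjusted p of 0.05 and open squares did not. mut-16 passed in 3 panels (0.53, 0.34 and -0.71), rde-8 in the descendants (-0.73), and rrf-1 (-0.46) and ego-1 (-0.29) in the comparison of the triple with the double mutant.

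Descendants of meg-3/4 that carried the wild-type genotype again had, on average over the 9 generations, more small RNAs at mut-16 and fewer at rde-8 than wild type. mut-16 ran from 207.8 over a median of 281.6 to 409.2 normalized counts in the 18 descendant libraries. Of these, 17 lay above both wild-type libraries, and F10 replicate 1, with 38 reads, lay below both. The mean of the 9 generations was higher by 0.34 on the log2 scale (SE 0.109, 95% interval 0.11 to 0.57; limma, adjusted p = 0.0323). rde-8 ran from 20.0 over a median of 35.5 to 54.7, with a mean of 37.0 ± 9.37 (SD, n = 18) against 63.1 ± 0.842 (SD, n = 2) in wild type. All 18 libraries lay below both wild-type ones, which was so of 9.01% of the features tested, and the log2 difference was -0.73 (SE 0.196, 95% interval -1.14 to -0.32; limma, adjusted p = 0.0110).

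Thus 2 of the 10 genes were called in the descendants, 1 in each direction, against 21.5% of all features tested (6.28% higher and 15.2% lower). Every comparison with wild type rests on the same 2 wild-type libraries, which meg-3/4 and the descendants share, so the values for meg-3/4 and for the descendants are given side by side and not as separate evidence. Without wild-type replicate 1 or replicate 2 the adjusted p was 0.191 or 0.236 for mut-16 and 0.128 or 0.119 for rde-8, at nearly the same log2 differences, and the calls over all features fell from 1903 to 837 or 765. The mut-16 call was also lost with no filter on low values (0.109) and with equal totals (log2 difference 0.17, adjusted p 0.373). The summed level at the 8 oocyte genes was 2037 to 2038 in wild type, 1522 to 1928 in the descendants, 1706 to 1807 in meg-3/4 and 2056 to 2091 in the triple mutant. Over the 12 germline genes it was 3485 to 3521 in wild type, 3241 to 3966 in the descendants and 3456 to 3557 in meg-3/4. Over the 10 sperm genes, of which 5 passed the filter on low values and msp-19 was at 0 in every library, it was 144 to 146 in wild type, 40.3 to 47.6 in meg-3/4 and 101 to 237 in the descendants. Of these 5, limma called 3 lower in meg-3/4, where 17.6% of all features tested were lower, and in the descendants 1 higher and 2 lower. The part of these marker genes in the differences from wild type was not tested.

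The other 8 genes did not pass in the descendants. The helicase gene mut-14 came nearest, with 719 to 954 normalized counts over the 18 libraries and a median of 861, against 769 and 732 in wild type. Of the 18, 16 lay above both wild-type libraries and the log2 difference was 0.19 (95% interval 0.02 to 0.35, adjusted p = 0.101). ego-1 likewise had 16 of 18 libraries above both wild-type ones (411 to 580, median 534; difference 0.13, interval -0.01 to 0.27), and so did rrf-3 (333 to 435, median 391.8; 0.09, -0.07 to 0.25). rrf-1 had descendant libraries on both sides of the wild-type ones (271 to 416, median 297), with a difference of 0.00 (-0.21 to 0.21). For mut-15 the difference was -0.12 (-0.33 to 0.10), for mut-7 it was 0.14 (-0.02 to 0.30), for rde-2 0.18 (-0.08 to 0.44) and for mut-2 -0.22 (-0.97 to 0.52).

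Taken generation by generation, rde-8 was furthest from wild type at F4 and nearest to it at F25. mut-16 was furthest at F4 and nearest at F10, the generations that each hold a shallow library. For mut-16 the log2 difference from wild type was 0.48 at F3 (adjusted p = 0.0296) and 0.56 at F4 (0.0101), and both passed. It was 0.40 at F5, 0.35 at F6, 0.32 at F7, 0.09 at F10, 0.32 at F15, 0.38 at F20 and 0.16 at F25, none of which passed. For rde-8 it was -0.84 at F3 (0.0326), -1.26 at F4 (0.00187), -0.87 at F5 (0.0257) and -0.86 at F7 (0.0294), which passed, and -0.64 at F6, -0.55 at F10, -0.70 at F15, -0.56 at F20 and -0.32 at F25, which did not. These were the only calls among the 90 pairs of gene and generation, 2 higher and 4 lower or 6.67%, against 13.8% of the pairs over all features tested.

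The rde-8 call at F4 was kept in all 4 fits that leave out a library and in all 12 other settings, although the F4 counts of 27.5 and 20.0 rest on 35 and 4 reads. The F4 counts of mut-16 were 271.2 and 409.2, the second from the shallow library, and without that library the difference was 0.26 (adjusted p = 0.234). Without wild-type replicate 1 or 2 the p for mut-16 was 0.0536 or 0.0666 at F4 and 0.113 or 0.142 at F3, and for rde-8 it was 0.140 or 0.132 at F3, 0.117 or 0.112 at F5 and 0.134 or 0.125 at F7. At F3 both calls were also lost without F3 replicate 1 (0.196 for mut-16 and 0.0703 for rde-8) or replicate 2 (0.0620 and 0.199), and the rde-8 calls were lost without F5 replicate 1 (0.300), F7 replicate 1 (0.186) or F7 replicate 2 (0.0665). The share of all features called against wild type was 17.6% at F3, 21.6% at F4, 19.3% at F5, 16.4% at F6, 17.1% at F7, 21.2% at F10, 7.76% at F15, 2.4% at F20 and 1.05% at F25.

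**Figure D3:**
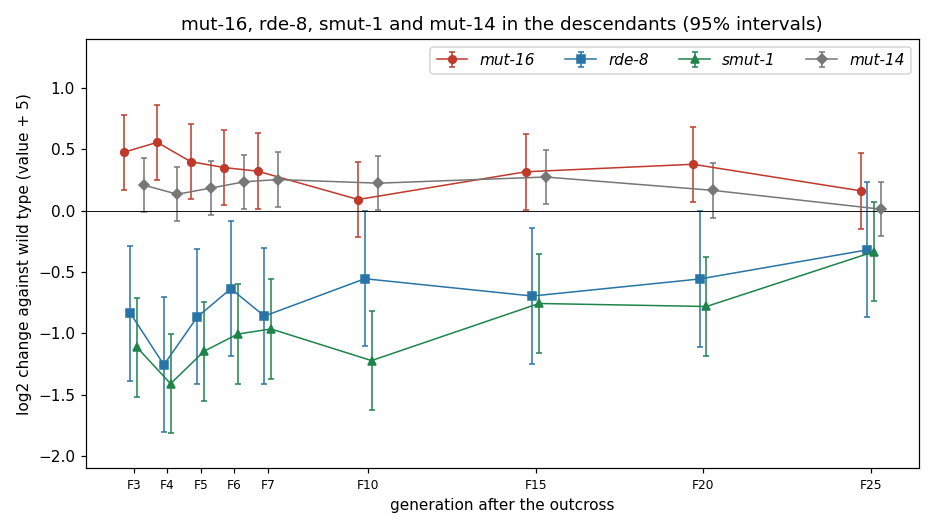
Log2 difference from wild type with its 95% interval (y axis) against generation after the outcross (x axis, to scale) for mut-16, rde-8, smut-1 and mut-14; points are shifted sideways so that they can be seen. mut-16 lay above the line of no difference (0.56 at F4, 0.16 at F25) and rde-8 below it (-1.26 at F4, -0.32 at F25), as did the helicase gene smut-1 (-1.41 at F4, -0.33 at F25), while mut-14 stayed within 0.01 to 0.27.

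The slope over generations within the 18 descendant libraries uses no wild-type library. rde-8 rose by 0.26 on the log2 scale per 10 generations (SE 0.0849, 95% interval 0.09 to 0.44; limma, adjusted p = 0.0253), from 36.5 and 30.0 normalized counts at F3 to 54.7 and 44.8 at F25. ego-1 fell by 0.10 per 10 generations (SE 0.0304, interval -0.16 to -0.04, adjusted p = 0.0174), from 536.3 and 580.4 at F3 to 411.0 and 480.9 at F25, and the F25 libraries lay below all 16 others. For mut-16 the slope was -0.10 (interval -0.21 to 0.00, adjusted p = 0.157) and for mut-7 -0.08 (-0.15 to -0.01, 0.106). These 2 calls among 10 genes compare with 23.5% of all features tested. The rde-8 slope was not called without F20 replicate 1 (0.0559) or F25 replicate 1 (0.118), and the ego-1 slope was not called without F25 replicate 1 (0.219); with no filter on low values neither was called (0.0653 and 0.0631), and rde-8 was not called with equal totals (0.0531) or quantile normalization (0.0923). The summed level at the sperm genes was 101 to 109 at F3 and 185 to 200.3 at F25. Of the 5 tested, 2 were called higher in slope and none lower. Over the 12 germline genes the sum was 3739 to 3933 at F3 and 3241 to 3677 at F25, with 1 called higher and 4 lower. Over the 8 oocyte genes it was 1719 to 1892 and 1785 to 1831, with 1 higher and none lower. The soma genes had 52.0 to 60.0 and 76.1 to 92.9, with 1 of the 6 tested higher and none lower. Beside these counts stand the 23.5% of all features called in slope. The part of these marker genes in the slopes was not tested. If later generations descend from earlier ones the libraries are not independent and these p-values are too small.

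The first descendants sampled did not differ from the mutants at these genes by a called amount. Between F3 and meg-3/4 none of the 10 genes was called by limma, edgeR or DESeq2, against 8.47% of all features tested in limma, and 1 had an unadjusted p under 0.05. That gene was rrf-3, with 434.9 and 408.2 normalized counts at F3 and 330.8 and 364.3 in meg-3/4 (log2 difference 0.28, 95% interval 0.06 to 0.49, adjusted p = 0.127). mut-16 had 330.9 and 299.3 at F3, overlapping the meg-3/4 counts (difference -0.06, interval -0.37 to 0.25), and rde-8 had 36.5 and 30.0 (-0.15, -0.70 to 0.40).

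In the triple mutant, which lacks HRDE-1 in addition, 3 of the 10 genes were called lower than in meg-3/4 and none was called higher. mut-16 had 193.6 and 203.4 normalized counts, the 2 lowest of the 24 libraries, against 341.8 and 314.2 in meg-3/4. The mean of 198.5 ± 6.92 was 0.605 of the meg-3/4 mean of 328 ± 19.5 (SD, n = 2 each), and the log2 change was -0.71 (SE 0.147, 95% interval -1.02 to -0.40; limma, adjusted p = 0.0014). rrf-1 fell from 324.1 and 333.9 to 232.3 and 244.4 (-0.46, SE 0.134, interval -0.74 to -0.18, adjusted p = 0.0202), again the lowest 2 of all libraries. ego-1 fell from 525.5 and 546.0 to 418.7 and 453.3 (-0.29, SE 0.0908, interval -0.49 to -0.10, adjusted p = 0.0268). Of all features tested 19.2% were called, 10.6% higher and 8.63% lower.

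The mut-16 fall was called in all 4 fits that leave out a library and was lost only with equal totals (-0.46, adjusted p = 0.0602). The rrf-1 call was lost without either meg-3/4 replicate 1 (0.0749), meg-3/4 replicate 2 (0.105), triple-mutant replicate 1 (0.125) or triple-mutant replicate 2 (0.0661), and the ego-1 call without the first 3 of these (0.0745, 0.143 and 0.211). With equal totals, the log2 changes of rrf-1 and ego-1 were -0.20 (0.358) and -0.04 (0.889). With quantile normalization both were lost too (0.0540 and 0.269), and mut-14 was called higher (0.33, limma, adjusted p = 0.0217). The summed level at the oocyte genes was higher in the triple mutant (2056 to 2091) than in meg-3/4 (1706 to 1807). So was that at the sperm genes (52.0 to 66.6 against 40.3 to 47.6) and at the germline genes (3571 to 3760 against 3456 to 3557). The sums at the soma genes overlapped (63.9 to 75.6 against 72.7 to 89.6). The part of these marker genes in these changes was not tested. The intervals of the other 7 genes included 0; that of rde-8, with 42.3 and 59.1 in the triple mutant, ran from -0.17 to 0.93. In 7 of the 10 genes the triple-mutant libraries did not overlap those of meg-3/4, against 60.1% of all features tested.

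Against wild type the triple mutant had none of the 10 genes called by limma, edgeR or DESeq2, where 18.2% of all features tested were called by limma. An unadjusted p under 0.05 was reached by 2 of them, the polymerase genes rrf-1 (log2 difference -0.34, 95% interval -0.62 to -0.06, adjusted p = 0.0917) and rrf-3 (-0.27, -0.48 to -0.06, 0.0763). For both, the triple-mutant libraries were the lowest 2 of the 24. rrf-3 had 290.9 and 323.2 normalized counts there and 375.6 and 366.1 in wild type. For mut-16 the triple mutant was near wild type, 193.6 and 203.4 against 226.9 and 223.0, with a difference of -0.18 (interval -0.48 to 0.13).

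Ordered by group mean, mut-16 was lowest in the triple mutant, then came wild type, F10, F25, F15, F7, F6, F20, F5, F3, meg-3/4 and F4. Neighbours in that order overlapped in their libraries except the triple mutant and wild type, and F25 and F15. rde-8 was highest in wild type, followed by the triple mutant, F25, F10, F20, F6, meg-3/4, F15, F5, F3, F7 and F4. Neighbours in that order overlapped except wild type and the triple mutant, and F7 and F4. Over the 24 libraries mut-16 and rde-8 had a Pearson correlation of -0.72 on the log2 scale, the lowest of any pair among the 10, and mut-7 and mut-16 the highest, 0.71; libraries of one group and one scaling factor per library are shared by both genes in each pair, and these values are descriptions.

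Some genes closely related to the members had larger changes. SMUT-1 is a DEAD-box helicase related to MUT-14 and redundant with it. smut-1 (V, 6097105 to 6099083, plus) had 97.8 and 95.8 counts in the wild-type pair of libraries, compared with 39.8 and 43.2 in the double mutant, a log2 change of -1.13 (95% interval -1.54 to -0.73; limma, adjusted p = 0.000171). It had 29.9 to 83.6 in the 18 descendant libraries, all below both wild-type ones (difference of the mean -0.97, interval -1.27 to -0.67, adjusted p = 7.11e-05). It rose over generations by 0.36 per 10 (interval 0.22 to 0.49, adjusted p = 0.000238) and stood at 89.1 and 81.2 in the triple mutant, 0.95 above meg-3/4 (interval 0.55 to 1.36, adjusted p = 0.00114). These 4 smut-1 calls were kept in every fit that leaves out a library and in all 12 other settings. Where reads match both helicase genes the counting may have split or dropped them, so levels of this pair carry that uncertainty, and their difference in response was not tested.

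**Figure D4:**
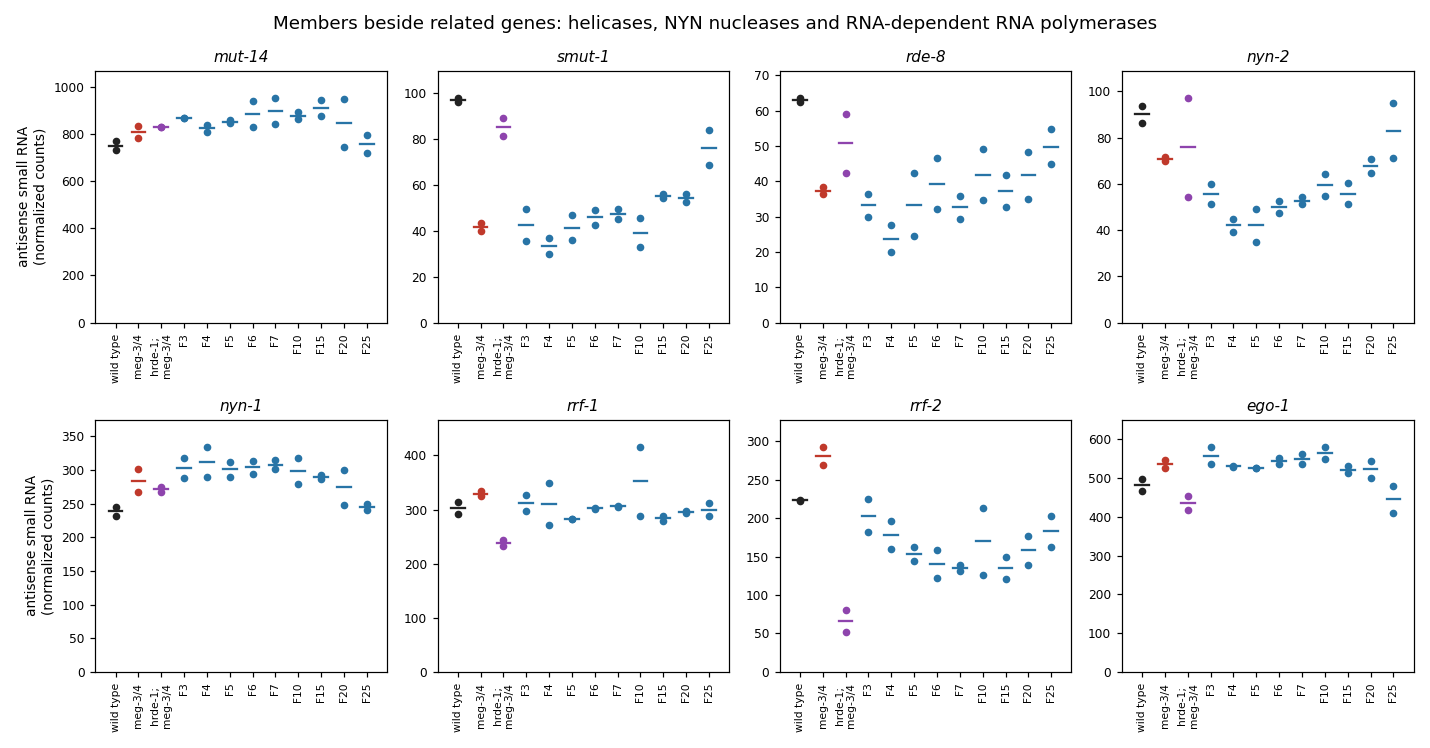
Normalized counts (y axis, linear, from 0) in the 12 groups (x axis) at 4 of the members and 4 related genes; each point is a library and each bar the mean of 2. The 2 meg-3/4 libraries had 39.8 and 43.2 counts at smut-1, below all wild-type and triple-mutant libraries, and the 2 triple-mutant libraries had 81.0 and 52.0 at rrf-2, below all others.

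The polymerase gene rrf-2 (I, 12098664 to 12106112, minus), a relative of rrf-1 and ego-1, had a level of 222.8 and 224.2 in wild type, 268.8 and 292.6 in the double mutant and only 81.0 and 52.0 in the triple mutant. It fell by 2.03 on the log2 scale between meg-3/4 and the triple mutant (95% interval -2.49 to -1.56; limma, adjusted p = 8.71e-07) and differed from wild type there by -1.71 (-2.17 to -1.24; limma, adjusted p = 6.9e-06), and both calls were kept in every fit that leaves out a library and in all 12 other settings. The difference between meg-3/4 and wild type was 0.32 and not called. In the descendants rrf-2 had 121 to 225 counts with a median of 159, and the mean difference from wild type was -0.48 (interval -0.82 to -0.13; limma, adjusted p = 0.0462), but this call was kept in only 8 of the 20 fits that leave out a library and 8 of the 12 other settings, with an adjusted p of up to 0.262 without wild-type replicate 2. rrf-2 was also lower in replicate 2 than in replicate 1 of the descendants, by a log2 mean of -0.32 (limma, adjusted p = 0.0178).

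NYN-1 and NYN-2 are nucleases of the same domain family as RDE-8 and act with it. nyn-2 had a level of 93.8 and 86.4 in wild type and 69.7 and 71.7 in the double mutant. In the descendants it was at least 35.1, with a median of 53.4. The highest descendant library, F25 replicate 1, lay above both wild-type ones, and all other descendant libraries lay below both. The descendant mean was lower than wild type by a log2 difference of -0.66 (95% interval -1.002 to -0.32; limma, adjusted p = 0.00658) and the level rose over generations by 0.32 per 10 (0.17 to 0.47; limma, adjusted p = 0.0015). nyn-1 went the other way, with 245.4 and 232.4 in wild type and 240.0 to 334 in the descendants. The lowest of these, F25 replicate 2 with 240.0, lay between the wild-type libraries. The difference of the nyn-1 mean was 0.28 (interval 0.11 to 0.46, limma, adjusted p = 0.0184). Its slope was -0.13 per 10 generations (-0.20 to -0.06, limma, adjusted p = 0.00373). Both nyn slopes were kept in all 18 fits that leave out a library. The differences of the descendant mean were lost without wild-type replicate 1 (adjusted p = 0.125 for nyn-2 and 0.1004 for nyn-1) or replicate 2 (0.0684 and 0.241), and that of nyn-1 also with no filter (0.0702) and with equal totals (0.518). Of these 4 related genes, 1 was called lower and none higher in meg-3/4, and 3 lower and 1 higher in the descendants. In the triple mutant against meg-3/4, 1 was lower and 1 higher. The shares of all features called, up or down, were 25.9%, 21.5% and 19.2% in these comparisons.

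Other genes of the small RNA pathways were counted from fixed lists. Beside these counts, 25.9% of all features tested were called in meg-3/4, 21.5% in the descendants and 19.2% in the triple mutant against meg-3/4. A list of 4 genes held polymerase cofactors (drh-3 and ekl-1) and uridylyltransferases (cid-1 and pup-2). Of these, cid-1 fell from 196 normalized counts (mean of wild type) to 145 in the double mutant (log2 change -0.42, limma, adjusted p = 0.0109). It was also lower in the descendants (-0.39, limma, adjusted p = 0.00325). The first call was lost when wild-type replicate 2 (0.0857) or double-mutant replicate 2 (0.0561) was left out, and the second without wild-type replicate 2 (0.0943). The other 3 did not pass in either comparison, nor did any of the 4 in the triple mutant against meg-3/4. Among 11 genes of the ERI and Dicer pathway, 1 was called higher and 1 lower in meg-3/4, 3 lower in the descendants and 1 lower in the triple mutant against meg-3/4. The higher one was eri-6, part of a helicase gene, whose mean was 4946 in wild type, 7915 in the double mutant (0.68; limma, adjusted p = 6.34e-05) and 4497 in the triple mutant (-0.81 against meg-3/4; limma, adjusted p = 8.36e-06); its rise in meg-3/4 was not called with equal totals or quantile normalization. The lower one was rde-4, the double-stranded RNA binding partner of Dicer (-0.38 in meg-3/4 and -0.27 in the descendants; limma, adjusted p = 0.0278 and 0.0389), whose call in meg-3/4 was lost in each of the 4 fits that leave out a library, and whose call in the descendants was kept in 13 of 20, with 0.263 and 0.214 without wild-type replicate 1 and 2. The others lower in the descendants were eri-7 (-0.55; limma, adjusted p = 0.0268), which forms the helicase together with eri-6, and ergo-1, an Argonaute gene of the pathway (-0.49; limma, adjusted p = 0.0381). Both calls were lost without wild-type replicate 1 or 2, with log2 differences of -0.38 and -0.72 for eri-7 and -0.54 and -0.43 for ergo-1. The eri-7 call was also lost with no filter (limma, adjusted p = 0.0596) and with quantile normalization (0.136). For ergo-1 the call was kept in 14 of the 20 fits that leave out a library and 8 of the 12 other settings. The rde-4 call in the descendants was kept in 9 of the 12 other settings.

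Of the 9 genes of exogenous RNAi that passed the filter, 2 were called higher in meg-3/4 and in the descendants. In the triple mutant against meg-3/4, 2 were lower and 1 higher. The shares of all features called, up or down, were 25.9%, 21.5% and 19.2% in these 3 comparisons. The pair called higher in meg-3/4 and in the descendants was sid-1, a channel for double-stranded RNA, and rde-11, a partner of RDE-10 in siRNA amplification. sid-1 changed by 3.23 on the log2 scale and rde-11 by 3.89 in meg-3/4, several times the 0.53 of mut-16, and by -3.21 and -3.27 in the triple mutant against meg-3/4, beside -0.71 for mut-16. The gene called higher in the triple mutant was the kinase gene sid-3 (0.85, limma, adjusted p = 0.0338). This call was lost in each of the 4 fits that leave out a library. A list of siRNA-binding Argonaute genes, which does not hold ergo-1, had 8 genes that passed the filter. None of the 8 was called in meg-3/4, and 1 was higher in the descendants (csr-1, 0.29, limma, adjusted p = 0.0284). That call was lost without wild-type replicate 1 or replicate 2. It was also lost with no filter (limma, adjusted p = 0.0671), with equal totals (log2 difference 0.13, 0.580) and with quantile normalization (0.08, 0.527). In the triple mutant against meg-3/4, 1 was lower, which was hrde-1 itself (-0.89).

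Genome position and neighbours were checked because overlapping genes can share reads. rrf-1 and ego-1 lie in the same orientation on chromosome I, 563 bases apart. On the other side of ego-1, 639 bases away on the same strand, F26A3.4 had a level of 74.7 ± 2.41 in wild type, 326 ± 43.2 in the double mutant and 439 in the triple mutant (SD, n = 2). Its log2 change in meg-3/4 was 2.05 (limma, adjusted p = 0.000105; kept in all 4 fits that leave out a library), beside 0.15 for ego-1 and 0.12 for rrf-1. mut-2 overlaps the exons of bli-4 by 67 bases on the opposite strand, rde-2 those of hint-1 by 24 bases on the same strand, and rrf-3 those of T05C12.11 by 37 bases on the opposite strand, whose mean over the 24 libraries was 0.726. mut-15 lies 32 bases from hrde-2, whose mean was 85.7 in wild type and 63.2 in the double mutant. Within the 24 bases that rde-2 and hint-1 share on the same strand, the reads of the genes cannot be told apart.

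The features whose level most resembled each gene over the 24 libraries were taken among 4469 features with a mean of at least 50, by Pearson's r on the log2 scale, as a description. For mut-16 they were eat-6 (0.828), zig-5 (0.825) and F52C6.4 (0.817), and for rde-8 they were Y49F6B.2 (0.828), melo-2 (0.827) and stim-1 (0.825). The closest of all was ints-2 with ego-1 (0.893), and rrf-1 was closest to wrn-1 (0.846) and rrf-3 to C28A5.2 (0.824). Libraries of one group and the depth of each library enter all these values. Between replicate 2 and replicate 1 of the 9 generations none of the 10 genes was called by limma, edgeR or DESeq2, against 2.07% of all features tested in limma, and 2 had an unadjusted p under 0.05. One was mut-7, which was higher in replicate 2 in 9 of 9 generations by a log2 mean of 0.11 (adjusted p = 0.265), and the other was mut-14, with 0.10 (adjusted p = 0.366).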

How the data were processed

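RNA of roughly 15 to 30 nt was cut from a gel, and phosphatase and kinase treatment let triphosphorylated RNAs be cloned, per the labels' protocols. The deposited table holds 1 signal value per feature and library, made by the authors with cutadapt, Bowtie, featureCounts and DESeq2, per the submitters' processing notes; their versions, the build, the annotation and the strand option were not stated there. All 386038 values above 0 were whole reads divided by 1 factor per library (tolerance 0.01), equal to DESeq2 size factors, and are called normalized counts. Of 28 microRNA genes with a non-coding feature on the other strand, 26 had fewer reads than that feature, so the reads are antisense to the annotated genes. Of the identifiers, 46364 matched Ensembl release 115 (WBcel235) and 362 did not; the authors' build may differ.

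A filter of 10 normalized counts in 2 or more libraries left 8869 features, which were fitted by limma 3.58.1 under R 4.3.3, using its trend option, on log2(value + 5), all 12 groups in one fit, two-sided, with Benjamini-Hochberg adjustment over these features at 0.05. The pseudocount of 5 makes changes of weak genes smaller. The slope is that of log2 level on generation number. Alternatives were other pseudocounts, filters and scalings, a replicate block, leaving out libraries, edgeR 4.0.16 and DESeq2 1.42.0 on the recovered reads. The fit was tested on simulated data.

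All 10 members are named in every comparison; for likeness, the 3 features with the highest Pearson r; from each pathway list, counts and up to 3 called genes; and overlapping or neighbouring features within 2 kb. Members, lists and tests were chosen with earlier results of these data known. The 95% upper limit on a count of 0 is 3 reads (counting error alone; PCR copies are not independent molecules), and 3 reads equal 14.97 normalized counts in F4 replicate 2, or 16.4 for F10 replicate 1.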

Additional observations from a re-analysis of the deposited data

How the results depend on the processing

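Each comparison was repeated under 12 other settings and with each of its libraries left out. No called value of the 10 genes changed sign in any of them. Counts of the 10 genes called moved as follows. For meg-3/4 against wild type, 1 was called, and 2 with a pseudocount of 20, 3 with equal library totals (rde-8, mut-15 and rrf-3, all lower), 2 with only the libraries compared, 2 without the shallow libraries, 2 in edgeR and 0 to 1 with a library left out. For the descendant mean, 2 were called, and 1 with no filter, 1 with equal totals and 0 to 3 with a library left out. For the slope, 2 were called, and 0 with no filter, 1 with equal totals, 1 with quantile normalization and 0 to 3 with a library left out. For the triple mutant against meg-3/4, 3 were called, and 1 with no filter, 0 with equal totals, 2 with quantile normalization (mut-14 higher, mut-16 lower), 2 in edgeR and 1 to 2 with a library left out. Against wild type, 0 were called, and 1 with equal totals, 1 with quantile normalization, 2 with only the libraries compared and 2 without the shallow libraries. For F3 against meg-3/4, 0 were called, and 1 (rrf-3) with equal totals. Of the 90 pairs of gene and generation, 6 were called, and 2 with no filter, 3 with quantile normalization, 10 with only the libraries compared, 10 without the shallow libraries and 1 to 9 with a library left out. The sid-1 difference between F3 and meg-3/4 reversed, from -0.47 to 0.15, with quantile normalization. The causes were not tested. Equal totals shifted the median log2 change of all features by -0.32 in meg-3/4, -0.15 in the descendants and 0.22 in the triple mutant against meg-3/4, and raised the lower share of the features called in meg-3/4 from 68.1% to 90.04%.

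Replicate numbers are not said to pair libraries. Deviations of same-numbered libraries had a correlation of 0.111 for meg-3/4 and wild type, 0.204 for the triple mutant and meg-3/4, 0.062 for the triple mutant and wild type, and -0.05 to 0.47 among generations, over 0.1 in 22 of 36 pairs. With a replicate block the counts called were 1 for meg-3/4, 2 for the descendant mean, 2 for the slope, 3 for the triple mutant against meg-3/4 and 0 against wild type, 0 for F3 against meg-3/4 and 7 of 90 pairs, where mut-16 at F5 passed (adjusted p = 0.0496). Over all features, the triple mutant against wild type gave 1618 calls and 2552 with only the libraries compared, and replicate 2 against 1 gave 184, and 19 with no filter, 303 without the shallow libraries and 362 in edgeR.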
